A study of Citrus sinensis with 6 samples.

Results

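The citrate cycle genes of sweet orange (*Citrus sinensis*) leaves were compared between control seedlings and seedlings under salt stress. Of the 29875 genes listed in the deposited table, 46 were placed in the KEGG pathway of the citrate cycle. The 31 of these that the table did not also place in carbon fixation, oxidative phosphorylation or glutathione metabolism are described here, and the other 15 are given for comparison. The rule rested on annotation alone and used no expression value.

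Total RNA from leaves of tissue-cultured seedlings was sequenced in 3 control libraries and 3 NaCl libraries. The control seedlings stood for 14 days without NaCl, and the NaCl seedlings were given 2% NaCl for 14 days. According to the study's methods, all seedlings were raised in vitro from seed and each biological replicate comprised several seedlings, but whether these were pooled in a library is not stated. The control labels name leaf blades and sterile water where the NaCl labels name leaf. The treatment protocol of all 6 samples names boron and a duration other than 14 days. Groups follow the treatment labels. If leaf blades and whole leaves were in fact sampled, this cannot be told apart from the NaCl treatment. Nor can fewer cells of one type be told apart from less RNA per cell.

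The citrate cycle oxidises acetyl-CoA in the mitochondrion and passes the electrons to the respiratory chain. The pyruvate dehydrogenase complex supplies acetyl-CoA, citrate synthase joins it to oxaloacetate, and aconitase and isocitrate dehydrogenase lead from citrate to 2-oxoglutarate. 2-Oxoglutarate dehydrogenase, succinate-CoA ligase, succinate dehydrogenase, fumarase and malate dehydrogenase then restore oxaloacetate. In leaves the cycle also supplies carbon skeletons for nitrogen assimilation. Plastids hold a pyruvate dehydrogenase complex of their own for fatty acid synthesis, and citrate exported to the cytosol is cleaved there by ATP citrate lyase.

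The deposited table gives each gene an identifier and GO and KEGG terms, but no name. An enzyme was therefore taken from the GO terms, which gave one for 20 of the 31 genes, and the other 11 are called by the pathways they share. Genes of the same enzyme are numbered by mean expression, so that gene 1 is the most expressed. None of the identifiers matched the RefSeq gene table for sweet orange, so no coordinates, sequences or gene names are given. Only 4 identifiers are printed, those with the lowest adjusted p among higher and among lower genes.

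Expression was given as FPKM, the fragments scaled by gene length and library total, which can be compared between genes. limma was run on log2(FPKM + 1) over 17285 genes that reached 0.5 FPKM in 3 or more libraries, and all 31 citrate cycle genes were among them. A call needed a Benjamini-Hochberg adjusted p of at most 0.05 together with a log2 fold change of at least 1 in size. Standard errors (SE) are on the log2 scale. The FPKM values could be turned back into whole reads, which gave library totals of 14325408 to 19520980 reads and 25 to 11637 reads for a citrate cycle gene in a library. For a gene 1 kb long, 1 read stood for 0.0512 to 0.0698 FPKM. The labelled tissue was checked with genes of photosynthesis and its antenna, of which 60 of 67 were above 0. Their summed expression was 9627, 4889 and 6073 FPKM in control replicates 1 to 3 and 10124, 7443 and 11285 FPKM in NaCl replicates 1 to 3. Control replicate 2, the lowest for this sum, also stood apart from the other controls in the citrate cycle genes, as given beside the results.

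None of the 31 genes passed the test. With limma, 0 of the 31 genes were called, against 2.73% of all tested genes (0.978% higher and 1.75% lower in NaCl), and 0 passed the adjusted p alone, against 3.23% of all tested genes. At an unadjusted p of 0.05 from limma, 6 were higher (background 19.1%) and 3 were lower (background 11.2%) in NaCl. limma with voom weights on the recovered reads also called 0. Adjusted p-values from limma ran from 0.0766 to 0.985, and 27 of the 31 genes had an absolute log2 fold change under 0.6. The median log2 fold change was 0.22, beside 0.18 for all tested genes. Log2 fold changes were positive for 23 genes, beside 64.7% of all tested genes, and negative for 8. However, quantile normalization and upper-quartile scaling each turned the sign of 5 and left 18 positive and 13 negative. Both scalings lowered the median of all tested genes by 0.10, and relative to that median 17 citrate cycle genes were higher and 14 lower with each of them, as without them.

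The groups did not overlap for 4 genes that were higher in NaCl, a share of the 31 genes below the 23.6% of all tested genes. They did not overlap for 5 genes that were lower, beside 12.4% of all tested genes. In either direction the groups separated for 36.1% of all tested genes. With 3 libraries against 3, a separation of the groups gives an exact two-sided permutation p of 0.1, the smallest possible. Control replicate 2 was the highest control library for 24 of the 31 genes, against 55.0% of all tested genes. It lay within the range of the NaCl libraries for 17 of the 31. Among the 23 genes with a positive log2 fold change it was the highest control for 22, and among the 8 with a negative one for 2. Without control replicate 2, 9 genes were higher at the adjusted p alone from limma (adjusted p from 0.0204 to 0.0476, log2 fold change from 0.47 to 0.86) and 0 were lower. These were genes 1 and 3 of the pyruvate dehydrogenase complex, genes 1, 3 and 4 shared with pyruvate metabolism and glycolysis, genes 1 and 3 of ATP citrate lyase, aconitase gene 2 and gene 2 shared with lysine and tryptophan metabolism. In that setting 16.5% of all tested genes were higher and 7.89% lower. Under the other alternatives the same 9 genes had adjusted p-values from 0.108 to 0.557 from limma. The part of control replicate 2 in these differences was not tested beyond leaving it out.

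**Figure D1:**
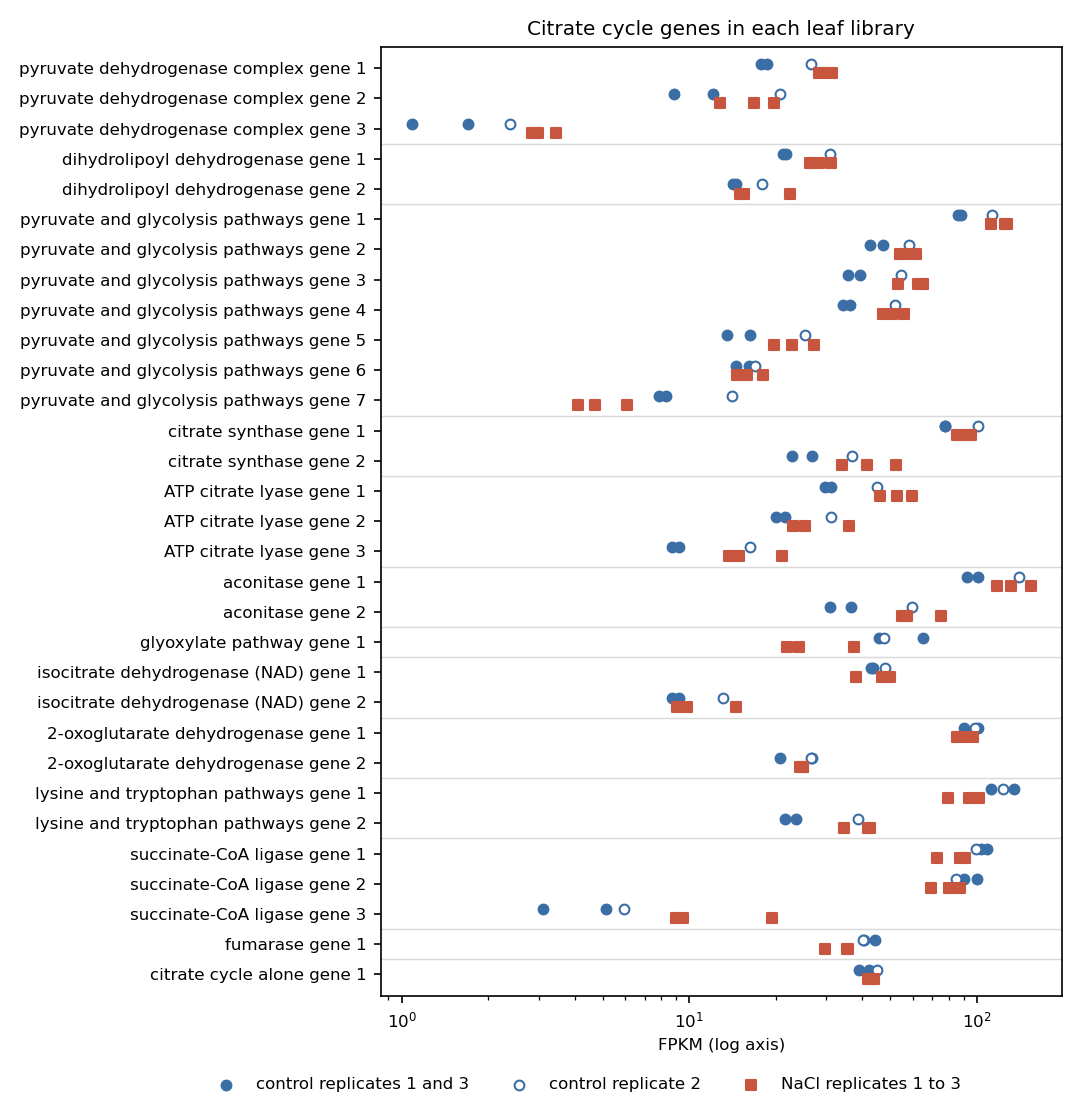
Each row is 1 of the 31 citrate cycle genes, grouped by enzyme or shared pathway and numbered by mean expression, and the horizontal log axis gives FPKM. Filled circles are control replicates 1 and 3, open circles control replicate 2 and squares the 3 NaCl libraries; the open circle lies within the range of the squares for 17 genes.

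All 5 genes annotated to the pyruvate dehydrogenase complex or dihydrolipoyl dehydrogenase had higher mean FPKM in NaCl leaves, none past the test. The table gave the pyruvate dehydrogenase complex, which converts pyruvate to acetyl-CoA, to 3 genes. Genes 1 and 3 were placed there by a location term alone and carry no function term. Gene 1 had 17.8, 26.5 and 18.6 FPKM in control replicates 1 to 3 and 28.3, 31.5 and 29.6 FPKM in NaCl replicates 1 to 3. No library of one group lay within the other, and the nearest control was replicate 2. The log2 fold change of pyruvate dehydrogenase complex gene 1 was 0.50 (SE 0.18, limma adjusted p = 0.123). Gene 3 of the complex was the lowest of all 31 genes, with 1.70, 2.38 and 1.08 FPKM in the controls and 2.98, 2.83 and 3.44 FPKM under NaCl. Its groups did not overlap either. Its means were 1.72 ± 0.648 and 3.08 ± 0.316 FPKM (SD, n = 3 each), and its log2 fold change was 0.61 (SE 0.23, limma adjusted p = 0.135). On recovered reads, without the addition of 1 that dampens low values, it was 0.90. Gene 3 stands 3 rows from gene 1 in the table's order. Whether the 2 genes are near-identical copies that share reads was not analysed here, so the split of reads between them is uncertain. Gene 2, which carries a plastid term, had 8.87, 20.7 and 12.1 FPKM in the controls and 19.7, 16.8 and 12.8 FPKM under NaCl. Control replicate 2 was the highest of its 6 libraries, and its log2 fold change was 0.29 (limma adjusted p = 0.546).

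Dihydrolipoyl dehydrogenase regenerates the lipoyl arm of the pyruvate and 2-oxoglutarate dehydrogenase complexes alike. Gene 1, placed in both mitochondrion and chloroplast, had 21.2, 31.0 and 21.8 FPKM in the controls and 28.4, 31.2 and 26.2 FPKM under NaCl. Its log2 fold change was 0.22 (limma adjusted p = 0.419). Gene 2, with a chloroplast term, had a log2 fold change of 0.15, which turned to -0.018 with quantile normalization. The groups overlapped for both genes.

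A further 7 genes were shared with pyruvate metabolism and glycolysis and had no enzyme term. In KEGG the pyruvate dehydrogenase complex lies where these pathways and the citrate cycle meet, but the table does not say which enzyme these genes encode. Gene 1 of this group, the most expressed, had 86.2, 113 and 88.1 FPKM in the controls and 127, 126 and 112 FPKM under NaCl. Control replicate 2 lay just above the lowest NaCl library. This gave a log2 fold change of 0.35 (SE 0.16, limma adjusted p = 0.199). Gene 3 had 35.7, 54.4 and 39.1 FPKM in the controls and 65.2, 62.5 and 53.1 FPKM under NaCl, with the same slight overlap through control replicate 2. The log2 fold change of gene 3 was 0.49 (SE 0.19, limma adjusted p = 0.144). Of the others, genes 2, 4 and 5 had log2 fold changes from 0.22 to 0.36 and gene 6 had 0.026, which turned to -0.093 with upper-quartile scaling and to -0.15 with quantile normalization.

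Gene 7 of the group (Cs_ont_5g050550) had the lower mean in NaCl leaves. It had 8.30, 14.1 and 7.87 FPKM in the controls and 6.08, 4.71 and 4.09 FPKM under NaCl. Every NaCl library lay below every control library, and control replicate 2 lay farthest from the NaCl libraries. The means were 10.1 ± 3.50 and 4.96 ± 1.02 FPKM (SD, n = 3 each), and the log2 fold change was -0.87 (SE 0.26, limma adjusted p = 0.0928). The gene rested on 63 to 166 reads in a library. Without control replicate 2 its log2 fold change was -0.62 (limma adjusted p = 0.0666), and under all alternatives the adjusted p ranged from 0.0515 to 0.279.

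At the next step, neither of the 2 genes of citrate synthase passed the test. Citrate synthase gene 1, annotated with the peroxisome and with fatty acid oxidation, had 77.6, 101 and 77.7 FPKM in the controls and 92.5, 95.2 and 85.5 FPKM under NaCl. Its control libraries reached beyond the NaCl libraries on both sides. The log2 fold change was 0.099 (95% interval -0.28 to 0.48, limma adjusted p = 0.689), and -0.026 with upper-quartile scaling. Citrate synthase gene 2, placed in mitochondrion and chloroplast, had 26.8, 36.9 and 22.8 FPKM in the controls and 41.6, 52.5 and 34.0 FPKM under NaCl. Only control replicate 2 overlapped with the NaCl libraries. Gene 2 had a log2 fold change of 0.56 (SE 0.23, limma adjusted p = 0.162). The ratio of gene 2 to gene 1, which a single factor per library cannot move, was 0.345, 0.364 and 0.293 in control and 0.45, 0.552 and 0.398 in NaCl. This ratio was chosen after the values were seen. Its exact two-sided permutation p of 0.1, the smallest possible, is therefore not used as a test.

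ATP citrate lyase, the cytosolic enzyme that cleaves citrate to acetyl-CoA and oxaloacetate, had 3 genes, all with positive log2 fold changes under each scaling. Gene 1 (Cs_ont_9g001380) had 31.1, 45.0 and 29.7 FPKM in the controls and 52.9, 59.5 and 46.1 FPKM under NaCl. The groups did not overlap, though control replicate 2 and NaCl replicate 3 were close. The means were 35.3 ± 8.44 and 52.9 ± 6.67 FPKM (SD, n = 3 each), with a log2 fold change of 0.59 (SE 0.20, limma adjusted p = 0.113). Genes 2 and 3 gave log2 fold changes of 0.20 and 0.53 (limma adjusted p = 0.575 and 0.231), with overlapping groups.

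Aconitase, which converts citrate to isocitrate, included the most expressed citrate cycle gene. Aconitase gene 1 had 101, 141 and 92.5 FPKM in the controls and 132, 154 and 118 FPKM under NaCl, a log2 fold change of 0.29 (SE 0.21, limma adjusted p = 0.367). Aconitase gene 2 had 36.4, 59.6 and 31.0 FPKM in the controls and 54.9, 74.8 and 57.0 FPKM under NaCl, a log2 fold change of 0.59 (SE 0.26, limma adjusted p = 0.184). For both genes control replicates 1 and 3 lay below every NaCl library and control replicate 2 lay among them. Both carry the GO term for the response to salt stress, as does gene 4 of the pyruvate and glycolysis group. The 3 genes with this term had log2 fold changes from 0.29 to 0.59, and none passed the test.

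The gene shared with glyoxylate and dicarboxylate metabolism (Cs_ont_4g018980), for which no enzyme term was given, had the lowest log2 fold change and the lowest adjusted p of the 31 genes. It had 45.6, 47.4 and 65.3 FPKM in the controls and 37.4, 24.1 and 21.8 FPKM under NaCl. Groups were apart, and control replicate 2 lay beside control replicate 1. The means were 52.8 ± 10.9 and 27.8 ± 8.42 FPKM (SD, n = 3 each). The log2 fold change was -0.92 (SE 0.24, limma adjusted p = 0.0766). It kept its sign with each library left out, from -1.15 to -0.76.

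The NAD-dependent isocitrate dehydrogenase, which forms 2-oxoglutarate, was close to level. Gene 1 had 42.9, 48.2 and 43.6 FPKM in the controls and 47.0, 49.9 and 38.0 FPKM under NaCl. Its log2 fold change was -0.0048 (95% interval -0.36 to 0.35, limma adjusted p = 0.985). Gene 2 had a mean of 10.4 ± 2.43 FPKM in the controls and 11.1 ± 2.94 FPKM under NaCl (SD, n = 3 each), with a log2 fold change of 0.089 that turned to -0.026 with upper-quartile scaling and to -0.12 with quantile normalization.

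**Figure D2:**
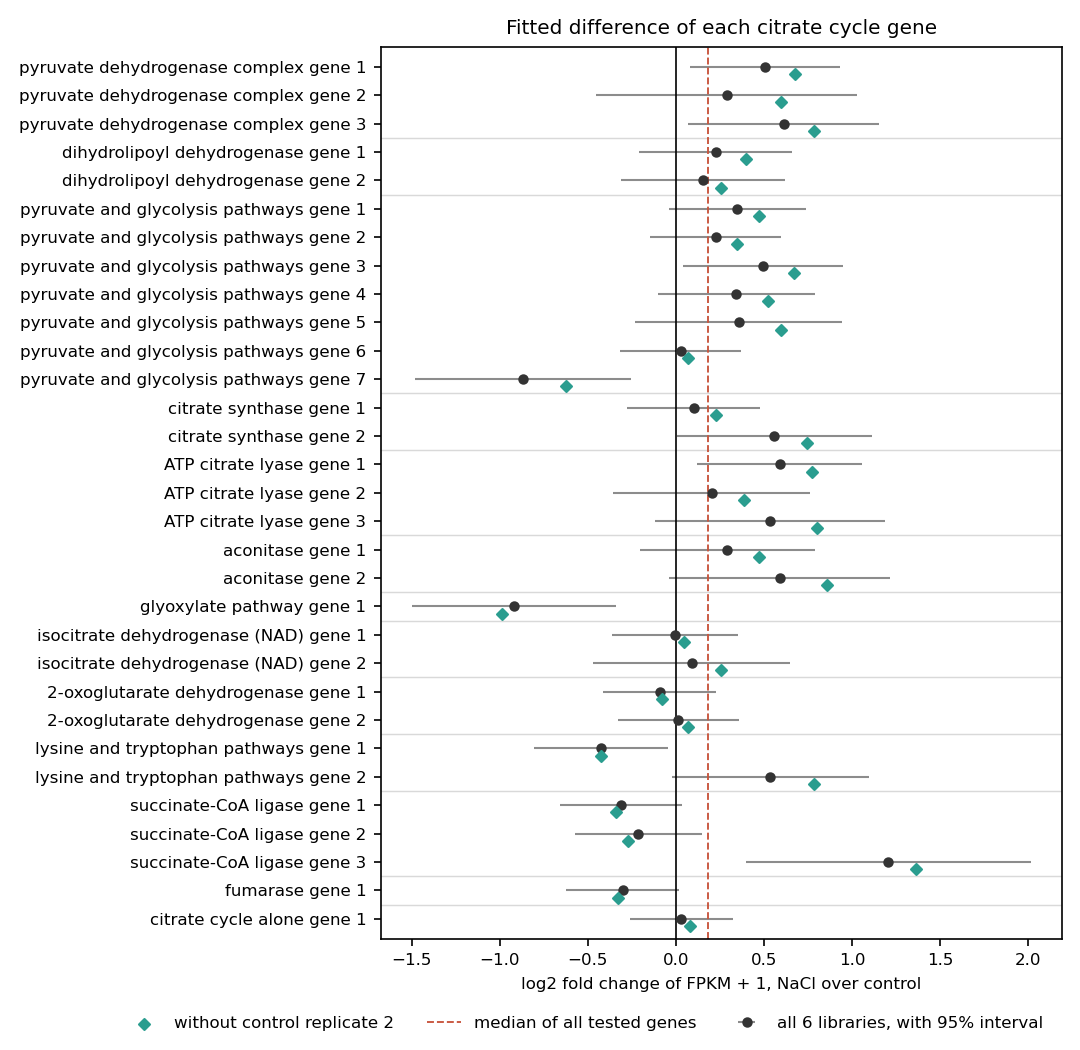
Each row is 1 of the 31 genes, and the horizontal axis gives the log2 fold change of NaCl over control on log2(FPKM + 1). Black points with bars are the limma estimate and its 95% interval over all 6 libraries, diamonds are estimates without control replicate 2, and the dashed line is the median of all tested genes at 0.18; estimates run from -0.92 for the glyoxylate pathway gene to 1.21 for succinate-CoA ligase gene 3.

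2-Oxoglutarate dehydrogenase, which forms succinyl-CoA, had 2 mitochondrial genes. Gene 1 had 101, 98.3 and 90.0 FPKM in the controls and 88.9, 96.8 and 85.1 FPKM under NaCl, with overlapping groups and a log2 fold change of -0.093 (95% interval -0.41 to 0.23, limma adjusted p = 0.657). Gene 2 had means of 24.6 ± 3.38 and 24.7 ± 0.335 FPKM (SD, n = 3 each). Its log2 fold change was 0.013, and -0.11 with both scalings.

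A pair of genes was shared with the breakdown of lysine and the metabolism of tryptophan and had no enzyme term. The pair was therefore counted neither in the sums by enzyme nor in the groups of enzymes compared below. Gene 1, with a mitochondrial term, had 112, 123 and 135 FPKM in the controls and 94.2, 102 and 79.2 FPKM under NaCl. Every NaCl library lay below every control library. The means were 123 ± 11.1 and 91.7 ± 11.5 FPKM (SD, n = 3 each), with a log2 fold change of -0.43 (SE 0.16, limma adjusted p = 0.135). Gene 2 had 21.6, 38.5 and 23.5 FPKM in the controls and 41.9, 42.6 and 34.5 FPKM under NaCl, a log2 fold change of 0.53 (limma adjusted p = 0.178). The ratio of gene 2 to gene 1 within a library was 0.192, 0.313 and 0.175 in control and 0.445, 0.418 and 0.436 in NaCl. The NaCl libraries lay close together in this ratio and above all controls, of which replicate 2 was the highest. The ratio was formed after the values were seen, so its exact two-sided permutation p of 0.1, the smallest possible, is not used as a test.

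Succinate-CoA ligase, which conserves the energy of succinyl-CoA as a nucleotide triphosphate, had 3 genes, all placed in the mitochondrion. Succinate-CoA ligase gene 1 had 104, 99.3 and 108 FPKM in the controls and 91.0, 87.2 and 72.8 FPKM under NaCl. The groups did not overlap, and the log2 fold change was -0.31 (SE 0.15, limma adjusted p = 0.198). Gene 2 had 90.5, 84.5 and 101 FPKM in the controls and 80.4, 87.7 and 69.6 FPKM under NaCl, with overlapping groups and a log2 fold change of -0.21 (limma adjusted p = 0.361).

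Succinate-CoA ligase gene 3 (Cs_ont_7g018840) had the highest log2 fold change of the 31 genes. It had 5.13, 5.95 and 3.09 FPKM in the controls and 9.49, 19.5 and 8.97 FPKM under NaCl. The groups did not overlap, and NaCl replicate 2 stood well above the other NaCl libraries. The means were 4.73 ± 1.47 and 12.6 ± 5.91 FPKM (SD, n = 3 each), a 2.67-fold difference. The log2 fold change was 1.21 (standard error 0.34, 95% interval 0.39 to 2.02, limma adjusted p = 0.0856). It ranged from 0.87 to 1.39 with single libraries left out, and the adjusted p ranged from 0.0545 to 0.253 under all alternatives.

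The 14 function terms of gene 3 are all shared with gene 1, and gene 1 carries no others. Gene 3 made up 4.72, 5.66 and 2.78% of the summed FPKM of both in control, and 9.44 to 18.2% in NaCl. The share was higher in every NaCl library than in every control. This share was chosen after the values were seen, so its exact two-sided permutation p of 0.1, the smallest possible, is not used as a test. Gene 3 rested on 61 to 476 reads in a library, and whether it shares reads with gene 1 was not analysed here. The summed expression of all 3 ligase genes was 199, 190 and 212 FPKM in the controls and 181, 194 and 151 FPKM under NaCl, with overlapping groups.

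Fumarase, which hydrates fumarate to malate, had 1 gene. It had 40.5, 40.2 and 44.1 FPKM in the controls and 35.8, 35.5 and 29.7 FPKM under NaCl. The groups did not overlap, and control replicate 2 lay with control replicate 1. The log2 fold change was -0.30 (SE 0.13, limma adjusted p = 0.181). The last gene, placed in the citrate cycle alone and with no enzyme term, had 42.1, 44.9 and 38.8 FPKM in the controls and 44.0, 41.9 and 42.6 FPKM under NaCl (log2 fold change 0.031, 95% interval -0.26 to 0.32, and -0.093 with upper-quartile scaling).

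**Figure D3:**
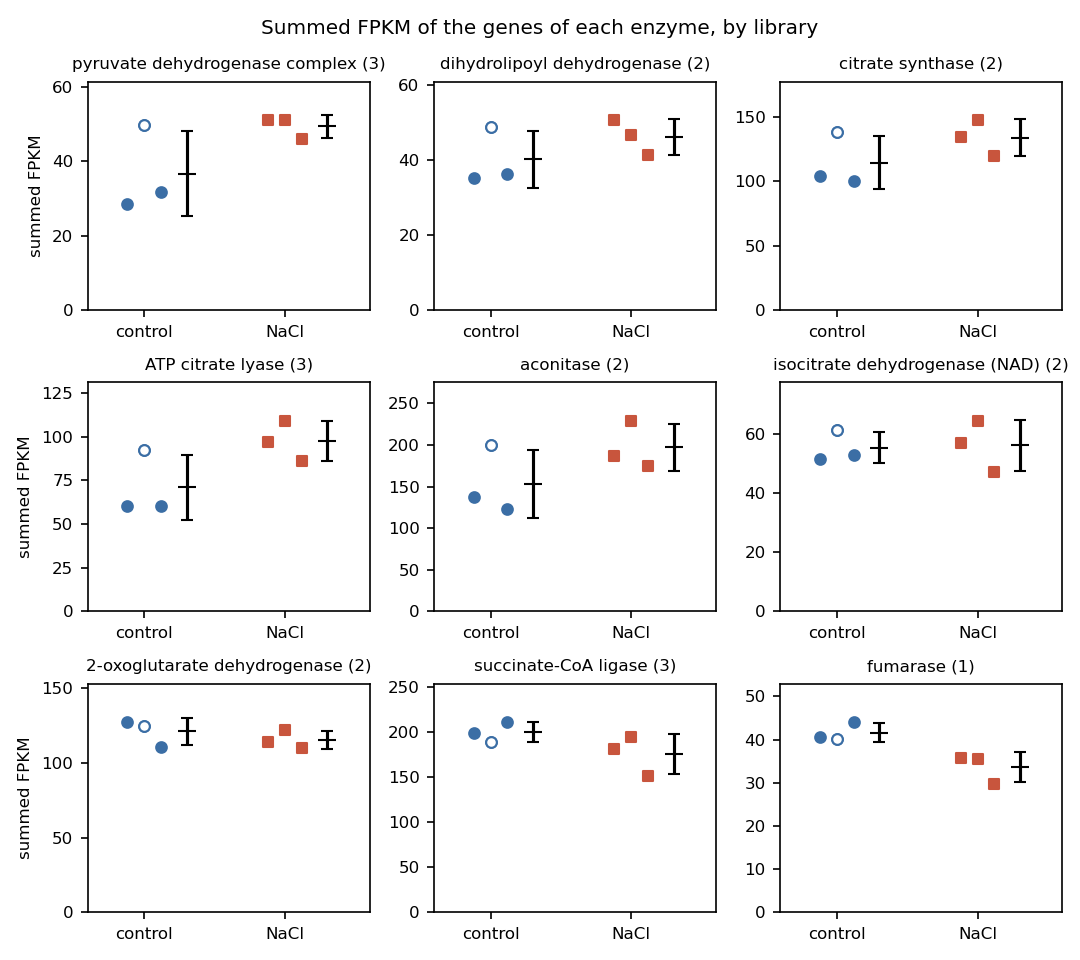
Each panel gives the summed FPKM of the genes of 1 enzyme, with the number of genes in brackets, in the 3 control libraries (circles, replicate 2 open) and the 3 NaCl libraries (squares), and bars show the mean and SD of each group. Control replicate 2 sits with the NaCl libraries for the pyruvate dehydrogenase complex, citrate synthase, ATP citrate lyase and aconitase, and above every NaCl library for 2-oxoglutarate dehydrogenase and fumarase.

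Summed by enzyme, the pyruvate dehydrogenase complex had 36.6 ± 11.4 FPKM in the controls and 49.3 ± 2.99 FPKM under NaCl, ATP citrate lyase 70.9 ± 18.6 and 97.5 ± 11.4 FPKM, and aconitase 154 ± 40.9 and 197 ± 28.5 FPKM (SD, n = 3 each). For each of these enzymes the groups overlapped through control replicate 2 alone. 2-Oxoglutarate dehydrogenase had 121 ± 8.93 and 115 ± 6.17 FPKM (SD, n = 3 each).

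The pyruvate dehydrogenase complex, citrate synthase, ATP citrate lyase and aconitase, which handle acetyl-CoA and citrate, together had 10 genes. All 10 had positive log2 fold changes, except that citrate synthase gene 1 turned to -0.026 with upper-quartile scaling. Isocitrate dehydrogenase, with log2 fold changes of -0.0048 and 0.089, was counted neither among the 10 nor with the later enzymes below. Dihydrolipoyl dehydrogenase, with 0.22 and 0.15, was left out of both groups too. Genes without an enzyme term were not counted among the 10. The gene placed in the same pathways as citrate synthase and aconitase (Cs_ont_4g018980) had -0.92. Of the 7 placed in the same pathways as the pyruvate dehydrogenase complex genes, 6 had positive log2 fold changes and gene 7 had -0.87. Of the 6 genes of 2-oxoglutarate dehydrogenase, succinate-CoA ligase and fumarase, 4 had negative log2 fold changes, and with both scalings 5 did. Succinate dehydrogenase and malate dehydrogenase, which also follow 2-oxoglutarate, are not among the 6 because the rule left them out. Their sums had higher means under NaCl, with overlapping groups. Succinate dehydrogenase summed to 98.6, 221 and 98.4 FPKM in the controls and 179, 223 and 183 FPKM under NaCl, and malate dehydrogenase to 167 ± 62.3 and 226 ± 18.5 FPKM (SD, n = 3 each). The most expressed of the 3 malate dehydrogenase genes carries chloroplast and cytosol terms and no mitochondrial term. Of these 3 genes, 2 had positive log2 fold changes and 1 a negative one. The ratio of the summed FPKM of the 10 genes to that of the 6 was 0.899, 1.35 and 0.861 in control and 1.42, 1.53 and 1.47 in NaCl. All NaCl libraries lay above all controls, and control replicate 2 lay nearer to the NaCl libraries than to the other controls. Succinate-CoA ligase gene 3, with the highest log2 fold change, is among the 6. The 10 are not all genes of the mitochondrial cycle. They include cytosolic ATP citrate lyase, citrate synthase gene 1 with its peroxisome term and pyruvate dehydrogenase complex gene 2 with its plastid term. The division into the 10 and the 6 was made after the values were seen, so the ratio is a description. Its exact two-sided permutation p of 0.1, the smallest possible, is not used as a test.

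**Figure D4:**
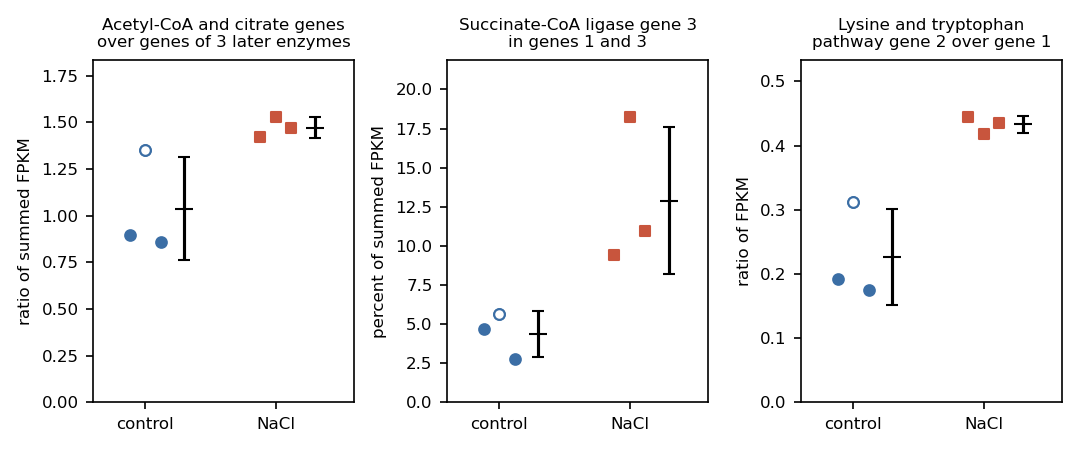
The left panel gives, for each library, the summed FPKM of the 10 genes of acetyl-CoA and citrate steps over that of the 6 genes of 2-oxoglutarate dehydrogenase, succinate-CoA ligase and fumarase. The middle panel gives the percent of succinate-CoA ligase gene 3 in the sum of genes 1 and 3, and the right panel gene 2 over gene 1 of the lysine and tryptophan pathways; circles are controls (replicate 2 open), squares are NaCl libraries, bars are the mean and SD, and all NaCl libraries lie above all controls in each panel.

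The 10 genes with a mitochondrial and no chloroplast term had log2 fold changes from -0.43 to 1.21, with 5 positive and 5 negative and a median of -0.040. Of the 5 positive, isocitrate dehydrogenase gene 2 and 2-oxoglutarate dehydrogenase gene 2 turned negative with quantile normalization and with upper-quartile scaling. The 4 genes with a chloroplast and no mitochondrial term had log2 fold changes from 0.15 to 0.36, all positive, except that dihydrolipoyl dehydrogenase gene 2 turned to -0.018 with quantile normalization. The 5 genes with both terms had a median of 0.29. The other 12 genes had neither term, and 5 of them had no location term at all. No test of the location was made.

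Of the 15 citrate cycle genes that also belong to carbon fixation, oxidative phosphorylation or glutathione metabolism, 14 could be tested and 1, annotated as succinate dehydrogenase, was listed at 0 in every library. With limma, 0 of the 14 passed the adjusted p. Without control replicate 2, 8 of them were higher at the adjusted p, beside the 16.5% of all tested genes above. Of these 8, 3 passed both thresholds, beside 916 of all 17285 tested genes that were higher at both in that setting. Their median log2 fold change was 0.31, with 11 positive and 3 negative. Succinate dehydrogenase gene 1, which oxidises succinate and feeds the respiratory chain, had 61.3, 157 and 66.3 FPKM in the controls and 134, 155 and 139 FPKM under NaCl. Control replicate 2 was the highest of the 6 libraries. Its log2 fold change was 0.72 (SE 0.36, limma adjusted p = 0.219), and 1.15 without control replicate 2 (limma adjusted p = 0.0144, with 0.312 to 0.502 when any other library was left out). Malate dehydrogenase closes the cycle by oxidising malate. Gene 2 of this enzyme, placed in mitochondrion and chloroplast, had 28.7, 57.6 and 25.4 FPKM in the controls and 63.3, 69.9 and 56.4 FPKM under NaCl. Its log2 fold change was 0.84 (SE 0.31, limma adjusted p = 0.129), with control replicate 2 among the NaCl libraries. Without that library it was 1.19 (limma adjusted p = 0.0146, with 0.215 to 0.347 when any other library was left out). The lowest adjusted p-values of the 14 belonged to genes without an enzyme term, higher in NaCl and with groups that did not overlap. The one also in carbon fixation had 0.85 (SE 0.21, limma adjusted p = 0.0675). The one also in glutathione metabolism had 0.77 (SE 0.21, limma adjusted p = 0.0798). Phosphoenolpyruvate carboxykinase gene 2 was lower without overlap (-0.46, limma adjusted p = 0.204). All of these genes were named after their values were seen.

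The neighbouring pathways were counted without the 31 genes, against the 3.23% of all tested genes past the adjusted p. In pyruvate metabolism 0 of 68 tested genes passed the adjusted p from limma, with a median log2 fold change of 0.18. In glyoxylate and dicarboxylate metabolism 0 of 52 passed, with a median of 0.29. In glycolysis 1 of 91 was higher and 2 were lower at the adjusted p, with a median of 0.24. These lists share genes with each other and with the 15 genes above.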

How the data were processed

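RNA-seq of 3 control and 3 NaCl leaf libraries was used. The study's methods name Trim Galore for trimming, HISAT2 for alignment and featureCounts for counting, while HTSeq is listed beside HISAT2 in the submitters' processing notes; the authors deposited the resulting values as FPKM. Several genome versions are named in the paper, so no build is given. The deposited group means, log2 fold changes and p-values of the authors were not used.

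limma 3.58.1 (R 4.3.3) with a mean-variance trend and no covariate served as the main test, on log2(FPKM + 1), after removal of genes that did not reach 0.5 FPKM in 3 libraries. P-values were Benjamini-Hochberg adjusted over all 17285 genes left. The scale understates the change of low genes. The fit was tested on simulated data with known changes. Summaries were made in Python 3.11.15 with pandas 2.3.3. The FPKM of all 23073 genes above 0 gave whole reads, within 0.02 reads, once library totals were chosen that make gene lengths whole; voom was run on these reads. The process terms of 1 citrate cycle gene were not used here.

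Alternatives left out each library in turn, took the replicate number as a block, dropped the filter or raised it to 1 FPKM, scaled by quantiles or by the upper quartile, and set the pseudocount to 0.1 or 0.01. Values in every library are given for the 5 higher and 5 lower genes of lowest adjusted p and for the most expressed gene of each enzyme. Further genes compared within an enzyme were chosen after their values were seen. The genes and lists were chosen with earlier results of these data known.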

Additional observations from a re-analysis of the deposited data

How the results depend on the processing

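Of the 31 genes, 0 were called with limma under any alternative that kept both thresholds, and 9 reached an unadjusted p of 0.05. Of the 14 other tested genes of the pathway, 3 were called without control replicate 2, beside 1800 of all 17285 tested genes in that setting. The median log2 fold change of the 31 genes ranged from 0.095 to 0.39 with single libraries left out, and moved from its value of 0.22 by less than 0.199, the SD of the library medians within groups, under every alternative. With the replicate number as a block, 0 genes were called and the median was 0.22. Same-numbered libraries did not deviate together (correlations of -0.034, 0.026 and -0.071), so the numbers were not taken as pairs. A sign turned for 3 of the genes with per-library values that the naming rule chose. Citrate synthase gene 1 had -0.026 with upper-quartile scaling. Isocitrate dehydrogenase gene 1 ranged from -0.084 to 0.11 with single libraries left out. The gene of the citrate cycle alone ranged from -0.023 to 0.081 with single libraries left out, and had -0.040 with quantile normalization and -0.093 with upper-quartile scaling.

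Among all tested genes, 472 were called, and 0 to 1800 with single libraries left out: 1800 without control replicate 2, 2 without control replicate 1, 0 without control replicate 3, and 100, 120 and 5 without NaCl replicates 1, 2 and 3. The count was 7 with the block, 40 with no filter, 308 with a pseudocount of 0.01, and 85 higher and 275 lower with upper-quartile scaling, against 169 and 303. Fewer libraries also lower the power of the test. The limma p-values rest on the spread between 3 libraries a group, with each gene's variance drawn toward the trend over all tested genes. They take in no other source of spread.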
